A study of Rattus norvegicus with 23 samples.

Results

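The purine synthesis and salvage enzymes described here were 10 genes taken by symbol: Ppat, Gart, Paics, Adsl, Atic, Impdh1, Impdh2, Gmps, Hprt1 and Pnp. Each symbol matched 1 row among the 19249 genes of the deposited table, and all 10 were among the 14414 genes with a mean of at least 10 normalized counts that entered the tests. RNA had been sequenced from frozen lung of male rats in 3 groups. Air rats (7 libraries) breathed filtered air, low smoke rats (8 libraries) breathed eucalyptus wood smoke at a carbon monoxide target of 10 ppm, and high smoke rats (7 libraries) breathed it at 20 ppm. Exposure was whole-body, for 4 days, then after 3 days of rest for 3 more days. No group carried a genetic change per the labels, and strain and age are not given in the sources used here. Each library came from a different numbered rat, so the p-values measure the spread between these rats.

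Cells make purine nucleotides either de novo, building the ring step by step on ribose phosphate until inosine monophosphate (IMP) is reached, or by salvage, rejoining free bases to ribose phosphate. IMP is the branch point from which adenine and guanine nucleotides are made, and breakdown through hypoxanthine and guanine feeds both salvage and uric acid. De novo synthesis is known for its high activity in dividing and activated cells, while most resting tissue relies largely on salvage.

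The genes lie on 9 chromosomes of build rn6, which the authors' table uses. Ppat (chr14:33580541-33614920, plus strand) and Paics (chr14:33563886-33580567, minus strand) are neighbours that point away from each other and overlap by 27 bases. Adsl overlaps LOC100362980 on the same strand by 4395 bases, so their reads can be confused, and whether counting used strand is not given in the sources used here. Most values of 8 members corresponded to whole reads within 0.05 read, in 19 to 22 of the 22 libraries. Paics did so in 2 libraries and Hprt1 in 1, which means their values held fractions of reads, and they are reported as less certain. Libraries held 8484131 to 12055512 read equivalents, and the members drew between 163 reads (Adsl) and 1562 reads (Pnp) in a single library.

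Promoter windows from RefSeq on build GRCr8, running from 250 bases before to 50 bases after a start site, were found for all 10 genes. Sequences of 5 are shown, since Pnp, Atic and Gmps carry the results below and Ppat and Paics share one stretch of DNA. Capitals mark a TATA box and, in its reverse complement, a CCAAT box for Pnp at chr15:26643897-26644196 (plus), CACGTG for Atic at chr9:80614061-80614360 (plus) and GGGCGG for Gmps at chr2:150600579-150600878 (plus). For Ppat at chr14:31569760-31570059 (plus) and Paics at chr14:31569986-31570285 (minus), capitals mark the 74 bases that both windows hold.
Pnp: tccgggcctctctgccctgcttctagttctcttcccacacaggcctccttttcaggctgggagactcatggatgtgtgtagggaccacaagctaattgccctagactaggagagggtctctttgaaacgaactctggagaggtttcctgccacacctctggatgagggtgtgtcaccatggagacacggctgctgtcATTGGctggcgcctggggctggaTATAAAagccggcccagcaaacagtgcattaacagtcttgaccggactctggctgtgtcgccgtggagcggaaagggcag
Atic: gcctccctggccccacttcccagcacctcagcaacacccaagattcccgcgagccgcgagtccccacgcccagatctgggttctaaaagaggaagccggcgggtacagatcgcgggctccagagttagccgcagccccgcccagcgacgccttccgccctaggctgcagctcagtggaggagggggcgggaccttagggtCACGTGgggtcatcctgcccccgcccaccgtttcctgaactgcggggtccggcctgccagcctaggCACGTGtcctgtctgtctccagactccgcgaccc
Gmps: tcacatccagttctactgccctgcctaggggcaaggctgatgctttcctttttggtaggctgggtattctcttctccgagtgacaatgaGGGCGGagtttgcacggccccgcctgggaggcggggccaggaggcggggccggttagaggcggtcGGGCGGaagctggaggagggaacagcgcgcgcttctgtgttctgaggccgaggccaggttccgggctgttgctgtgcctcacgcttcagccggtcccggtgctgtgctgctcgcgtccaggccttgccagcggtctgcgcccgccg
Ppat: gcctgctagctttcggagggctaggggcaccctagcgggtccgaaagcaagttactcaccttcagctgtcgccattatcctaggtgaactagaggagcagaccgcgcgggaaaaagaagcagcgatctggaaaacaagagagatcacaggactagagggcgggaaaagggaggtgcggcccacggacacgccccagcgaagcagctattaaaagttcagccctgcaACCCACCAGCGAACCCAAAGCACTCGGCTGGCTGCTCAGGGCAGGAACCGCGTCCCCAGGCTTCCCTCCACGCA
Paics: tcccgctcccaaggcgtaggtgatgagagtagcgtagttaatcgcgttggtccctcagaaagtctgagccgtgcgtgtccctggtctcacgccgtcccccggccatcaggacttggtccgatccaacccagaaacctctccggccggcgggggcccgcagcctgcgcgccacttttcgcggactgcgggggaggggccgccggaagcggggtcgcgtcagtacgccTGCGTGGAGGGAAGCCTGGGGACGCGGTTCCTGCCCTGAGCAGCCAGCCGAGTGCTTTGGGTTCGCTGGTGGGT

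The start sites of Ppat (position 31570010) and Paics (position 31570035) in GRCr8 were so placed that the first 26 transcribed bases of each were the same stretch read on opposite strands. Motifs were searched as exact letters on both strands. CACGTG, the E-box, was in the window of 1 member, Atic, which had 2 copies, and in 6.4% of the 33469 windows of all genes. GGGCGG, the GC box, was in windows of 7 of the 10 members and in 33.1% of all windows. CCAAT was found for 3 members (Gart, Impdh2 and Pnp) against 37.5% of all windows, and TATAAA for 2 (Impdh2 and Pnp) against 14.2%. These letter matches are descriptions and not evidence of binding.

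High smoke replicates 1, 3 and 7 stood apart from the other libraries before any gene was considered. On the first principal component, with 19.7% of the variance, they lay at 36.5 to 51.5, while the other 4 high smoke libraries lay at 0.305 to 8.77, low smoke at -12.7 to -1.81 and air at -21.6 to -0.291. High smoke results of the members are therefore also given without these 3 libraries. No 2 libraries held identical values.

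In high smoke against air, 5 of the 10 purine enzyme genes passed the test and they did not move one way. Pnp, Gart, Atic and Impdh2 rose, and Gmps fell. Among all genes tested, 16.3% passed (9.21% higher and 7.05% lower), with limma on log2(value + 1) and a Benjamini-Hochberg adjusted p below 0.05. The members' median log2 change was 0.031, beside -0.0021 over all genes, and the median size of a change was 0.20 for members and 0.17 for all genes. None of the 10 genes had groups without overlap, against 1.87% of all genes. With only these 2 groups in the fit, Pnp alone of the 10 passed, beside 1351 of all 14414 genes tested. By an exact rank-sum test Pnp was again the only member, beside 746 of all genes. Without high smoke replicates 1, 3 and 7, no member passed and 0.86% of all genes did.

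**Figure D1:**
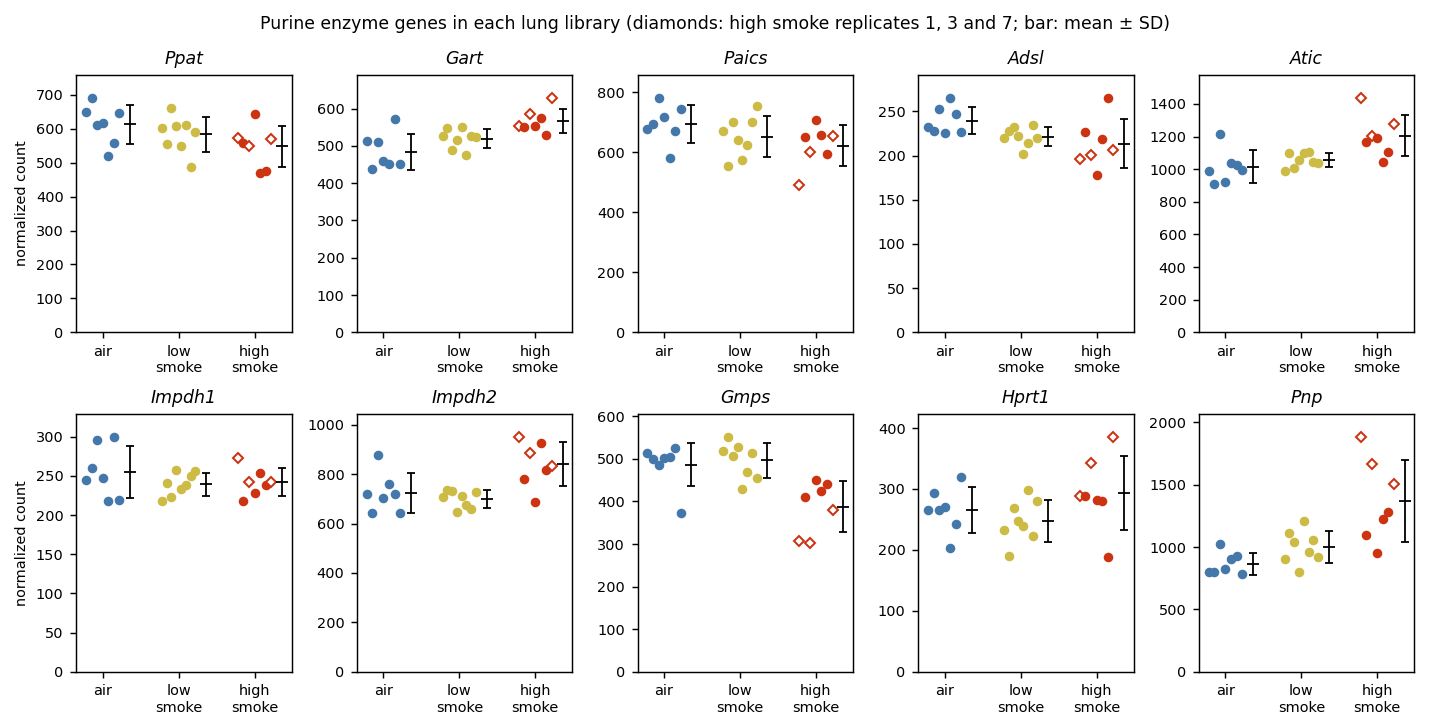
Normalized counts of the 10 genes in each of the 22 libraries, with group means ± SD beside the points (air n = 7, low smoke n = 8, high smoke n = 7); open diamonds are high smoke replicates 1, 3 and 7. Those replicates hold the 3 highest Pnp values (1502 to 1880) and 3 of the 4 lowest Gmps values of all libraries (303 to 379).

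The first committed enzyme of the de novo route is the amidotransferase Ppat. Its normalized count ran from 519 to 690 in air (median 616), from 488 to 661 in low smoke (median 596) and from 469 to 642 in high smoke (median 559). The groups overlapped widely, with 2 of 7 high smoke libraries below every air library. The log2 change in high smoke was -0.16 (SE 0.08, limma adjusted p = 0.164), short of the threshold. With every library scaled to the same total, the change was -0.24 and passed (adjusted p = 0.0379). Without replicates 1, 3 and 7 it was -0.20 (adjusted p = 0.363).

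Gart carries 3 activities of the route in one protein, including the steps that attach glycine and a formyl group from folate. Air libraries had 438 to 571 normalized counts (median 459), low smoke 475 to 550 (median 525) and high smoke 530 to 628 (median 554). All 7 high smoke libraries were above the air median and 3 were above every air library, though air replicate 6 reached 571. Gart rose 1.17-fold in high smoke (log2 change 0.23, SE 0.06, limma adjusted p = 0.0152). Without replicates 1, 3 and 7 the change was 0.19 (adjusted p = 0.233), and the call was also lost under equal library totals (0.16).

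Paics, which joins carbon dioxide and then aspartate to the growing ring, had 582 to 781 normalized counts in air (median 693). Low smoke libraries ranged from 553 to 753 (median 656) and high smoke libraries from 492 to 706 (median 650). Only high smoke replicate 1, at 492, was below all air libraries. The log2 change was -0.16 (SE 0.08, limma adjusted p = 0.182) and did not pass. It was -0.089 without replicates 1, 3 and 7 (adjusted p = 0.701).

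Adsl, the lyase that releases fumarate in de novo synthesis and again on the way from IMP to AMP, ranged from 226 to 265 normalized counts in air (median 232), from 202 to 234 in low smoke (median 221) and from 178 to 265 in high smoke (median 207). Of the high smoke libraries 5 of 7, and of the low smoke libraries 5 of 8, lay below every air library, while high smoke replicate 6 at 265 equalled the highest air value when rounded. The change of -0.18 (SE 0.08) in high smoke did not pass (limma adjusted p = 0.116). It was -0.25 and passed with equal library totals (adjusted p = 0.0413), and it also passed without high smoke replicate 6. Without replicates 1, 3 and 7 it was -0.12 (adjusted p = 0.592).

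The last steps to IMP are made by Atic, a transformylase and cyclohydrolase. Its normalized count was 912 to 1217 in air (median 995), 989 to 1104 in low smoke (median 1051) and 1046 to 1436 in high smoke (median 1189). Every high smoke library exceeded the air median, but air replicate 3, at 1217, was above 5 of the 7. Atic rose 1.19-fold (log2 change 0.25, SE 0.07, limma adjusted p = 0.0163). Replicates 1, 3 and 7 had 1204 to 1436 and the other high smoke libraries 1046 to 1189, and without the 3 the change was 0.16 (adjusted p = 0.320). The call was also lost under equal library totals (0.17).

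**Figure D2:**
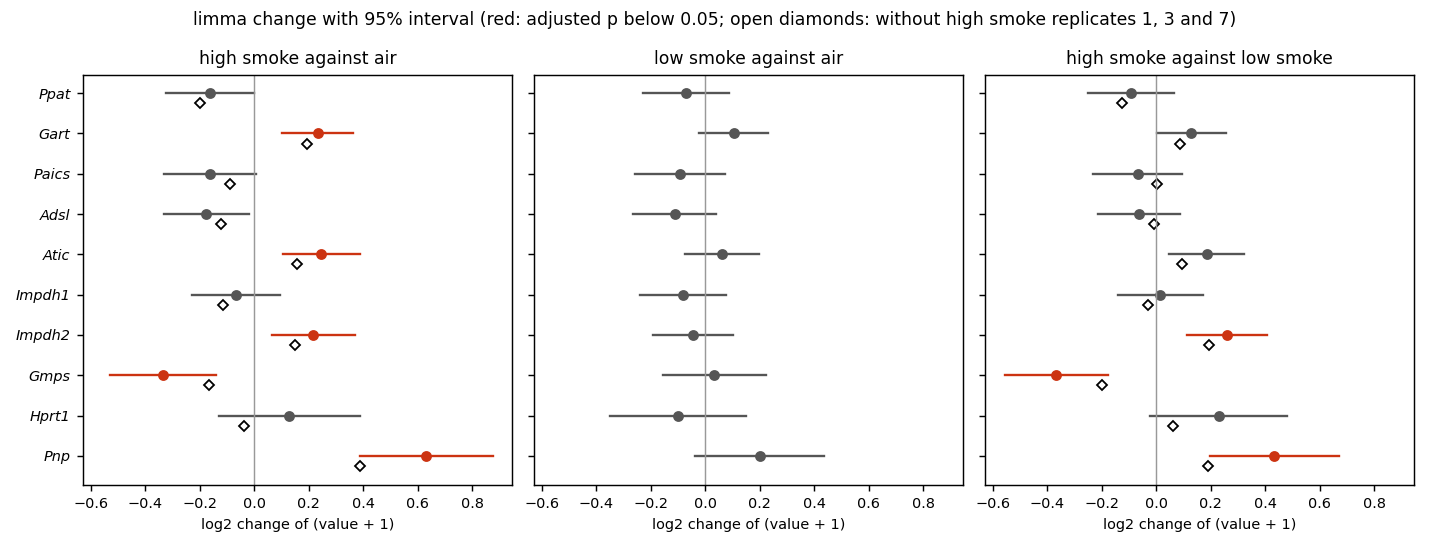
Log2 change of (value + 1) of each gene from limma, with its 95% interval, in the 3 comparisons; red marks an adjusted p below 0.05 and open diamonds give the change without high smoke replicates 1, 3 and 7. Pnp (0.63) and Gmps (-0.33) have the largest rise and fall in high smoke against air, and no gene is red in low smoke against air.

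The isoenzymes Impdh1 and Impdh2 oxidise IMP at the entry to guanine nucleotides. Impdh1 had 218 to 299 normalized counts in air (median 247), 218 to 257 in low smoke (median 239) and 218 to 273 in high smoke (median 242). The lowest value was the same in each group when rounded, and the high smoke change was -0.067 (SE 0.08, limma adjusted p = 0.604), or -0.11 without replicates 1, 3 and 7 (adjusted p = 0.630). Impdh2 had 644 to 878 in air (median 718), 645 to 734 in low smoke (median 709) and 688 to 950 in high smoke (median 835). In high smoke 6 of 7 libraries were above the air median and 3 were above every air library. Impdh2 rose 1.16-fold in high smoke (log2 change 0.22, SE 0.07, limma adjusted p = 0.0467), close to the threshold. It no longer passed in 17 of 22 fits that each left out 1 library, under equal library totals (0.14) or equal upper quartiles (0.20), or without replicates 1, 3 and 7 (0.15, adjusted p = 0.446).

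The ratio of Impdh1 to Impdh2 within a library hardly depends on how that library was scaled. As a log2 ratio it was -1.50 ± 0.18 (SD, n = 7) in air, -1.54 ± 0.14 (n = 8) in low smoke and -1.79 ± 0.09 (n = 7) in high smoke. High smoke was lower than air by a log2 difference of -0.28 (SE 0.08, exact two-sided permutation p = 0.00291, adjusted over 6 ratio tests p = 0.00874). Against low smoke the difference was -0.25 (SE 0.06, exact permutation p = 0.00233, adjusted p = 0.00874), and for low smoke against air it was -0.037 (exact permutation p = 0.653, adjusted p = 0.995). The balance thus lay further towards Impdh2 in high smoke than in either other group. Without replicates 1, 3 and 7 the differences from air and from low smoke were -0.26 and -0.23, each with an adjusted exact permutation p of 0.118.

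The neighbours Ppat and Paics kept a log2 ratio of -0.18 ± 0.12 (SD, n = 7) in air, -0.16 ± 0.18 (n = 8) in low smoke and -0.18 ± 0.21 (n = 7) in high smoke. No difference between groups passed, with exact two-sided permutation p from 0.793 to 0.995. The standard error was 0.09 for high smoke against air, which sets the size of difference that could have been seen. Without replicates 1, 3 and 7 the difference from air was -0.11 and that from low smoke -0.13, each with an adjusted exact permutation p of 0.367.

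**Figure D3:**
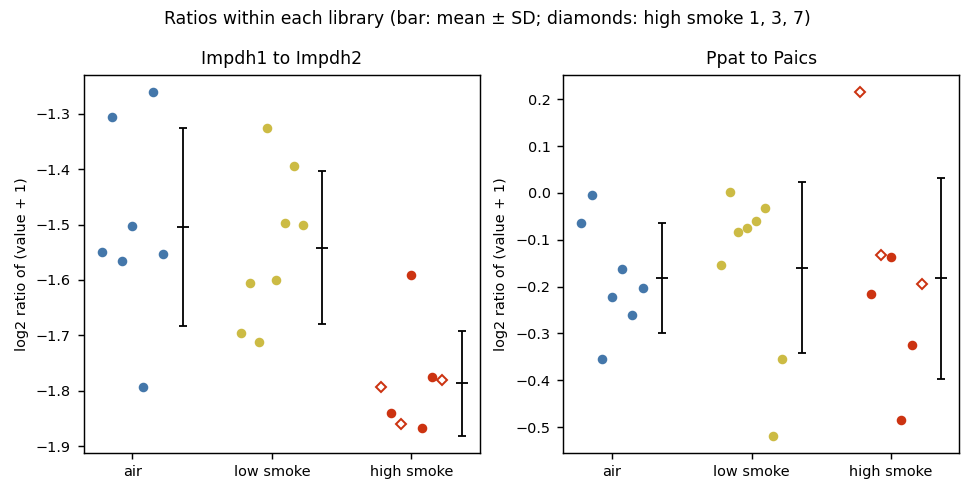
Log2 ratio of Impdh1 to Impdh2 (left) and of Ppat to Paics (right) in each library, with the group mean ± SD; open diamonds are high smoke replicates 1, 3 and 7. In the left panel the high smoke mean (-1.79) lies below those of air (-1.50) and low smoke (-1.54); in the right panel the means lie between -0.18 and -0.16.

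Gmps, which aminates xanthosine monophosphate to GMP, was the member that fell. In air 6 of the 7 libraries lay between 486 and 525 normalized counts (median 503), and air replicate 7 was at 374. Low smoke ranged from 430 to 551 (median 511) and high smoke from 303 to 450 (median 411). All 7 high smoke libraries were below the air median, and replicates 1 and 3 were below every air library. The log2 change was -0.33 (SE 0.09, limma adjusted p = 0.0182). Replicates 1, 3 and 7 had 303 to 379 and the other high smoke libraries 411 to 450. Without the 3 the change was -0.17 (adjusted p = 0.406). The call was also lost when replicate 1 or replicate 3 alone was left out. Gmps went the other way from Impdh2, the enzyme that precedes it.

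Of the salvage enzymes, Hprt1 rejoins hypoxanthine and guanine to ribose phosphate. It had 202 to 320 normalized counts in air (median 266), 190 to 298 in low smoke (median 244) and 189 to 385 in high smoke (median 289). High smoke held both the lowest value of all libraries, replicate 6, and the highest, replicate 7. The change of 0.13 (SE 0.13, limma adjusted p = 0.520) did not pass, and it was -0.039 without replicates 1, 3 and 7.

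Pnp, the phosphorylase that splits inosine and guanosine into base and ribose phosphate, had the largest change of the 10. Air libraries held 786 to 1022 normalized counts (median 821), low smoke libraries 800 to 1205 (median 998) and high smoke libraries 950 to 1880 (median 1281). High smoke replicate 4, at 950, was the only one not above every air library. Pnp rose 1.55-fold in high smoke (95% interval 1.31 to 1.83, log2 change 0.63, SE 0.12, limma adjusted p = 0.00155). It kept its call in all 22 fits that left out 1 library. Replicates 1, 3 and 7 held 1502 to 1880 and the other 4 held 950 to 1281, and without the 3 the change was 0.39 (adjusted p = 0.0792).

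In low smoke against air no purine enzyme gene passed, and neither did any other gene (0%). At an unadjusted p below 0.05, 923 genes and 0 members were found, and the exact rank-sum test also called 0 members. Changes ran from -0.11 for Adsl to 0.20 for Pnp, with limma adjusted p from 0.808 to 0.968. The median over the members was -0.058 beside 0.0031 over all genes. For Pnp 4 of 8 low smoke libraries lay above every air library, with an unadjusted p of 0.095. All 8 low smoke libraries were above the air median for Gart (0.10). None of the 10 genes had groups without overlap (0.0416% of all genes did).

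In high smoke against low smoke 3 members passed, beside 6.78% of all genes (3.8% higher and 2.98% lower). Pnp was 1.35-fold higher (log2 change 0.43, SE 0.11, limma adjusted p = 0.0309). Impdh2 was 1.20-fold higher (0.26, SE 0.07, adjusted p = 0.0339), with 6 of 7 high smoke libraries above all low smoke libraries. Its call was lost under equal library totals (0.22, adjusted p = 0.0784) and in 9 of 22 fits that each left out 1 library, among them low smoke replicates 1, 2, 4, 6 and 7. Gmps was lower (-0.37, SE 0.09, adjusted p = 0.0248), with 5 of 7 libraries below all low smoke libraries. Atic (0.18, adjusted p = 0.0846) and Gart (0.13, adjusted p = 0.189) did not pass, although 6 and 5 of the 7 high smoke libraries exceeded every low smoke library. No member passed without replicates 1, 3 and 7 (0% of all genes), when the changes of Pnp, Impdh2 and Gmps were 0.19, 0.19 and -0.20. The same was so when replicate 1, 3 or 7 alone was left out, and by an exact rank-sum test. High smoke is one set of libraries in both of its comparisons, so they are not independent. None of the 10 had groups without overlap, against 0.694% of all genes.

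The members did not vary as a block among the rats of a group. Over 22 libraries, with group means removed, Pearson's r between the 45 pairs of members had a median of 0.0107, and 24 were above 0. Impdh2 and Pnp had the highest r (0.713, and 0.683 without replicates 1, 3 and 7), followed by Ppat with Hprt1 (0.617, and 0.650 without the 3) and Atic with Pnp (0.608, and 0.467 without the 3). Ppat with Adsl had the lowest (-0.626, and -0.621 without the 3). Gmps had an r of -0.535 with Pnp, which was -0.273 without the 3, and of -0.544 with Hprt1, which was -0.590. The neighbours Ppat and Paics had an r of 0.287, and 0.399 without the 3. These values describe libraries that share depth and scaling, and no test was made of them.

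**Figure D4:**
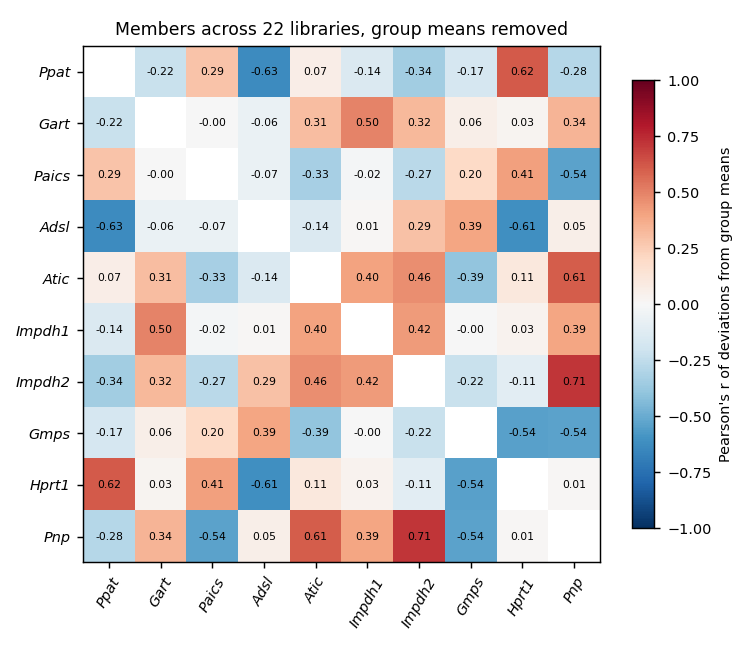
Pearson's r between each pair of the 10 genes over 22 libraries, after the group means were subtracted, on a scale from -1 (blue) to 1 (red). Impdh2 and Pnp form the darkest red pair (0.713) and Ppat and Adsl the darkest blue pair (-0.626).

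By the same measure, genes most like Pnp among 12792 named genes were Ap2m1 (0.903) and Capns1 (0.899). Those nearest to Gart were Cd4 (0.801), Frzb (0.759) and Reep2 (0.727), and those nearest to Atic were Slc35a4 (0.840) and Fxr2 (0.781). Impdh2 had Rpsa (0.842), Pmm2 (0.822) and Bcl2l1 (0.817), and Gmps had Xpo5 (0.898), Rpl6 (0.876) and Dock9 (0.863). These 5 members shared none of the genes named, and the likenesses are a description of 22 libraries.

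Around the 10 members, the rest of the pathway showed single genes rather than whole lists passing in high smoke against air. Over 8 lists 16 of 73 genes passed (21.9%), beside 16.3% of all genes tested. None of 5 other de novo genes, which make or regulate phosphoribosyl pyrophosphate or, for Pfas, act between the steps of Gart, passed, and the one with the smallest p was Prps2 (-0.13, limma adjusted p = 0.241). Beyond IMP, 1 of 8 genes tested rose, the nucleoside diphosphate kinase Nme2 (0.43, adjusted p = 0.0469). In salvage 1 of 7 rose and 1 fell. Aprt, which salvages adenine, rose 1.34-fold (log2 change 0.42, adjusted p = 0.0239), and Adal, an adenosine deaminase-like enzyme, fell (-0.43, adjusted p = 0.0417). The median log2 changes of these lists were 0.042, 0.20 and 0.072.

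Breakdown genes split, with 2 of 12 higher and 1 lower, beside 9.21% higher and 7.05% lower among all genes tested. Gmpr, which returns GMP to IMP, rose 1.41-fold (log2 change 0.49, limma adjusted p = 0.0197) and its relative Gmpr2 fell (-0.23, adjusted p = 0.0457). Nt5c3a, which was counted in this list although it is a nucleotidase of pyrimidine nucleotides, also rose (0.35, adjusted p = 0.0202). Folate genes, which supply one-carbon groups to Gart and Atic, gave 1 rise among 13, Mthfd1 (0.24, adjusted p = 0.0409). The median was -0.087 for breakdown and -0.11 for folate genes.

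The parallel pyrimidine genes had 1 of 14 higher and 4 lower, with a median of -0.10. Among all genes tested 9.21% were higher and 7.05% lower. Uck1, which salvages uridine and cytidine, rose (0.47, limma adjusted p = 0.002), while the phosphorylase Tymp (-0.48, adjusted p = 0.00669), the kinase Cmpk1 (-0.22, adjusted p = 0.0264) and the CTP synthase Ctps1 (-0.24, adjusted p = 0.0473) fell. Umps, the uridine monophosphate synthase and the fourth to fall (-0.44, adjusted p = 0.0491), is named after its value was seen. Nucleoside transporters and adenosine receptors had 2 of 9 higher, Slc29a1 (0.30, adjusted p = 0.00682) and Slc29a3 (0.28, adjusted p = 0.0106), and a median of 0.16. Of 5 transcription factors known as regulators of purine genes, Atf4 (0.37, adjusted p = 0.00794) and Mycn (0.57, adjusted p = 0.0279) rose, and the median was 0.19. In low smoke against air, no gene of these 8 lists passed. Slc29a1, at 0.26, and Mycn, at 0.66, had unadjusted p of 0.00109 and 0.000705 there but adjusted p of 0.489 and 0.462.

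High smoke against low smoke left 6 calls among the 73 genes of these lists (8.22%), beside 6.78% of all genes. Nme2 (0.57, limma adjusted p = 0.0248), Aprt (0.41, adjusted p = 0.0441), Gmpr (0.47, adjusted p = 0.0404), Uck1 (0.33, adjusted p = 0.0328) and Atf4 (0.39, adjusted p = 0.0174) were higher. Mthfd2l, a folate dehydrogenase of mitochondria, was lower (-0.65, adjusted p = 0.0497). No gene of the 8 lists passed in any comparison without high smoke replicates 1, 3 and 7.

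**Figure D5:**
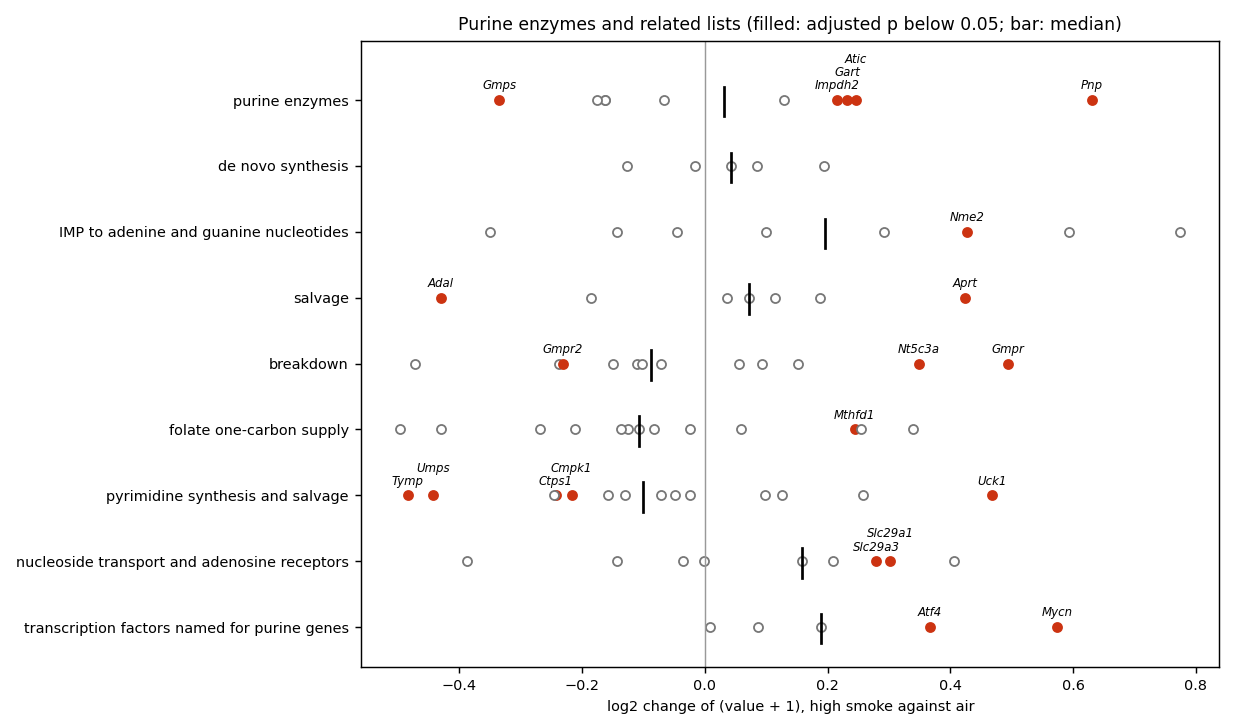
Log2 change of (value + 1) in high smoke against air for the 10 purine enzyme genes and 8 related lists; each circle is a gene, filled and named where the adjusted p was below 0.05, and the black bar is the list's median. Every list except de novo synthesis has at least 1 filled circle, and Pnp (0.63) lies furthest to the right among those filled.

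Markers of lung cell types were read beside these results, since in bulk tissue fewer cells of a type and less RNA per cell cannot be told apart. The surfactant gene Sftpc, made by lung, averaged 65040 ± 11069 normalized counts (SD, n = 7) in air and 106596 ± 26660.5 (n = 7) in high smoke. Sftpc thus weighed heavily in the alveolar type 2 sums given below. No marker list had a gene at 0 in every library of a group. Markers of dividing cells did not pass in high smoke against air (0 of 9), with a summed level of 2132 to 3010 normalized counts in air, 2396 to 2919 in low smoke and 2205 to 2935 in high smoke. Alveolar type 2 markers had 3 of 7 higher in that comparison, where 16.3% of all genes tested passed (9.21% higher and 7.05% lower). Their sums were 145891 to 187455 in air, 141697 to 205029 in low smoke and 184697 to 254412 in high smoke. Within high smoke, replicates 1, 3 and 7 had sums of 224027 to 254412 and the other 4 libraries 184697 to 196151, and 1 of the 7 markers, Napsa, still passed without the 3 (adjusted p = 0.0442). Sums of alveolar type 1 markers (59775 to 64379.5 against 53842.5 to 56274) and of T cell markers (213 to 358 against 165 to 203) also kept the 3 libraries apart from the other 4. The 3 libraries were likewise apart for Pnp, Atic and Gmps. They were narrowly apart for Hprt1 too (288.722 to 384.849 against 188.736 to 288.624), which did not pass. The part of these cell types in the results of these members was not tested.

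Red cell markers had 2 of 6 higher, beside 9.21% higher and 7.05% lower among all genes tested in high smoke against air. Their sums were 4831 to 7148 in air, 4538 to 9167 in low smoke and 7104 to 14594 in high smoke. Hbb weighed heavily in these sums, averaging 3561 in air and 6913 in high smoke. Alveolar type 1 markers had 2 of 6 higher (sums 45060.5 to 54073 in air, 47756 to 63093 in low smoke, 53842.5 to 64379.5 in high smoke). B cell markers had 1 of 5 higher (257 to 848, 376 to 848 and 549 to 1466) and fibroblast markers 1 of 5 higher (28609 to 37703, 32013 to 47028 and 30884 to 41715), in the same order of groups. Endothelial markers had 1 of 5 higher and 1 lower (33005 to 40489, 34989 to 44889.5 and 31354 to 39457), and macrophage markers 1 of 6 lower (5562 to 6864, 5447 to 6788 and 5663 to 7443). Genes of T cells (0 of 5), neutrophils (0 of 4), airway epithelium (0 of 4) and heart muscle (0 of 5) did not pass. Their sums were 124 to 279, 150 to 230 and 165 to 358 for T cells, and 218 to 529, 154 to 474 and 222 to 457 for neutrophils. For airway epithelium they were 6523 to 11338, 6302 to 9097 and 6448 to 9923, and for heart muscle 100 to 1232, 133 to 1147 and 135 to 1016. The part of these lists in the members' results was not tested.

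Together the 10 members took 0.0545% to 0.0690% of all normalized counts in air, 0.0560% to 0.0606% in low smoke and 0.0579% to 0.0655% in high smoke, ranges that overlapped. Under equal library totals the share of higher genes among all calls in high smoke against air was 33.2%, beside 56.6% as deposited, and the median of all genes was -0.078. Against low smoke that share was 39.5% beside 56.1%. Of the members, Pnp rose and Ppat, Adsl and Gmps fell on that scale.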

How the data were processed

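Gene-level values of 22 rat lung libraries were used. Reads had been aligned with STAR 2.7.3a to build rn6 and handled with Partek and DESeq2, per the submitters' processing notes; how reads were counted is not given in the sources used here. The deposited unit is signal: gene counts divided by the authors' size factor for each library, not whole reads. Within 0.05 read, 84.5% of values under 2000 reads were whole, so whole reads were not recovered and no count model was used. A 23rd sample, labelled high smoke, was removed from processing per its description and was not analysed here. The protocol also tells of a filtered-air sample removed for poor quality. The labels give 24 rats randomized with 8 planned per group, and low smoke rats are numbered from 9. Only 7 air rats have a sample, so an air rat is missing as well as the high smoke one.

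Values were taken as log2(value + 1), which understates changes of low genes, and genes with a mean of at least 10 were fitted in limma 3.58.1 (R 4.3.3, trend on, robust off) as 1 model of 3 groups with no covariate. The two-sided p of each gene was adjusted over 14414 genes (Benjamini-Hochberg), and an adjusted p below 0.05 was called. Ratios were tested by exact permutation of the group labels. The code was checked on simulated data. Depth limits the precision of low genes most.

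The members and the lists were chosen with earlier results of these data known. Of 164 listed genes outside the members, 152 were in the table. Named from each pathway list were at most 4 called genes with the smallest p, or the 1 with the smallest p where none was called; likenesses give genes among the 3 highest r, of which some are not reported here. Alternatives were 2 pseudocounts, 2 filters on low values, 3 scalings, library weights, robust variances, a fit of only the 2 groups compared, an exact Wilcoxon rank-sum test, leaving out high smoke replicates 1, 3 and 7, and leaving out each library.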

Additional observations from a re-analysis of the deposited data

Results flagged for a closer look

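In 2 of the 30 sets formed by 10 genes and 3 groups, 1 library lay far from the rest of its group, measured as its gap to the nearest library over the range of the group; chance gives about 1 in 20. Atic in air replicate 3 was at 1217 normalized counts, and the next air library was at 1040, a gap of 0.581 of the range. Gmps in air replicate 7 was at 374, and the next air library was at 486, a gap of 0.745 of the range.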

How the results depend on the processing

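No paired analysis was possible because nothing in the labels ties a rat of one group to a rat of another. In high smoke against air, members called were 1 when only the 2 groups were fitted, 1 by rank-sum test and 0 without high smoke replicates 1, 3 and 7 (all genes 1351, 746 and 124); leaving out 1 library gave 3 to 5 members (3 without high smoke replicate 1 or 3) and 1455 to 2864 genes, moved by over 1.5 times without high smoke replicate 1, 3 or 7. In high smoke against low smoke, the rank-sum test called 0 members and 183 genes, and 0 and 0 remained without the 3 libraries. Leaving out 1 library gave 0 to 4 members (0 without high smoke replicate 1, 3 or 7, 1 without low smoke replicate 1, 2 or 4, 2 without low smoke replicate 6 or 7, 4 without high smoke replicate 6) and 29 to 1651 genes (moved by over 1.5 times without low smoke replicate 1, 2, 3 or 4 or high smoke replicate 1, 3, 4, 6 or 7). In low smoke against air all genes gave 1 without the 3 libraries and 0 to 2 without 1 library (changed without air replicate 5). The ratio of Impdh1 to Impdh2 no longer passed without the 3, at -0.264 against air and -0.226 against low smoke.

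Signs turned for uncalled values only. Without the 3 libraries Hprt1 against air was -0.039, and Paics and Impdh1 against low smoke were 0.0039 and -0.032. Impdh1 against low smoke was -0.026 under equal totals, -0.0012 under equal upper quartiles and -0.0032 with library weights, and -0.0146 to 0.0400 without 1 library. Gmps in low smoke against air was -0.0020 under equal totals and -0.0288 to 0.0623 without 1 library. Without 1 library, Impdh2 in low smoke against air ranged from -0.0710 to 0.0035, its ratio with Impdh1 from -0.0853 to 0.0036, and the ratio of Ppat to Paics from -0.0667 to 0.050 (high smoke against air), -0.0067 to 0.0733 (low smoke against air) and -0.0888 to 0.0279 (high against low smoke). The cause of these changes was not tested. Pnp, Gart and Atic kept their calls against air in all 22 fits without 1 library.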
